A study of Mus musculus with 40 samples.

Results

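The RNA of 9 genes that mark neurons of the subfields of the mouse hippocampus was followed across brain libraries of mice colonized with human gut microbes. The genes were chosen by symbol, and all 9 were found among the 47643 genes of the count tables. *Prox1*, *C1ql2*, *Pdyn* and *Dsp* served as dentate members, *Wfs1*, *Spink8*, *Fibcd1* and *Amigo2* as CA (cornu ammonis) members, and *Zbtb20* was kept apart because it marks both fields and astrocytes. All 40 libraries came from wild-type, germ-free swiss webster mice, described in the methods as juvenile females of 6 to 8 weeks on a control diet, so that every recipient shared the absence of microbes before transfer. Each cohort received fecal microbiota (FMT) that 1 of 10 children with refractory epilepsy gave before a clinical ketogenic diet (pre-KD) or while on it (post-KD). Hippocampus and frontal cortex were taken on day 4, and each library pooled the tissue of 6 mice of 1 cohort. That gave 10 libraries for each region and condition, in which the cohort is the replicate, variation among the mice within a pool cannot be measured, and each donor links 1 pre-KD with 1 post-KD cohort.

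Granule cells of the dentate gyrus take in the main cortical input of the hippocampus and send mossy fibres to CA3, whose pyramidal cells in turn reach CA1, while the small CA2 field lies between both. Each of these cell types keeps its own set of transcripts, so in tissue cut from the brain the levels of subfield markers depend on how much of each field was included as well as on the activity of the genes. In such pooled tissue, fewer cells of a type and less RNA per cell cannot be told apart.

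Gene totals ran from 1140756 to 1947416 counts in the hippocampus and from 1188447 to 2095352 in the frontal cortex, so at the median hippocampal total of 1560669.5 counts 1 read is worth less than 1 CPM, the unit used below, in which counts are scaled to a common library size. None of the 180 pairs of libraries within a group held identical values (0 of 180). Mouse Y-linked transcripts of 4 genes reached 139 to 276 counts in every library of the cohorts of donors 9 and 10, against the stated female sex, and at most 27 elsewhere. The counts of members called are therefore also given without these cohorts. In the edgeR fit between regions described below, all 6 tested striatal genes were lower in the hippocampus at an adjusted p below 0.05. Of all genes 1.98% were. At that threshold 4 of 6 choroid plexus genes were higher in the hippocampus, as were 0.87% of all genes. The choroid plexus genes *Clic6* (log2 fold change 0.61) and *Otx2* (1.73) did not pass. The summed striatal level was 49.3 to 287 CPM in the hippocampal and 447 to 1018 CPM in the frontal cortical libraries and the summed choroid plexus level was 496 to 4313 and 7.32 to 594 CPM. The striatal *Drd2* was too low to be tested and was listed at 0 in all hippocampal and all post-KD cortical libraries. These levels moved with the region, and their part in the differences below was not tested.

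The first question was whether the markers separated the hippocampus from the frontal cortex of the same mice. In a fit across all genes with a term for each of the 20 cohorts (edgeR quasi-likelihood test, Benjamini-Hochberg adjustment), all 9 members passed the filter on low counts and 6 of 9 differed at an adjusted p below 0.05, where 2.85% of the 19422 genes tested did. At an unadjusted p below 0.05 there were 7 of 9, where 10.9% of all genes passed, 2.78% higher and 8.12% lower in the hippocampus. *Prox1*, *C1ql2*, *Dsp*, *Spink8* and *Zbtb20* were higher in the hippocampus, as were 0.87% of all genes, and *Pdyn* was higher in the frontal cortex, as were 1.98%. *Wfs1*, *Fibcd1* and *Amigo2* did not pass. Within the pre-KD cohorts alone 3 of 9 members passed the adjusted threshold, beside 1.09% of all genes, and within the post-KD cohorts alone 5, beside 1.41%. Without donors 9 and 10 there were 7, *Fibcd1* being added, beside 2.48% of all genes, and the fold changes of the other 6 then ranged from -2.32 for *Pdyn* to 5.12 for *Spink8*. The median log2 fold change over all genes was -0.17, and those of the members are given without subtracting it.

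**Figure D1:**
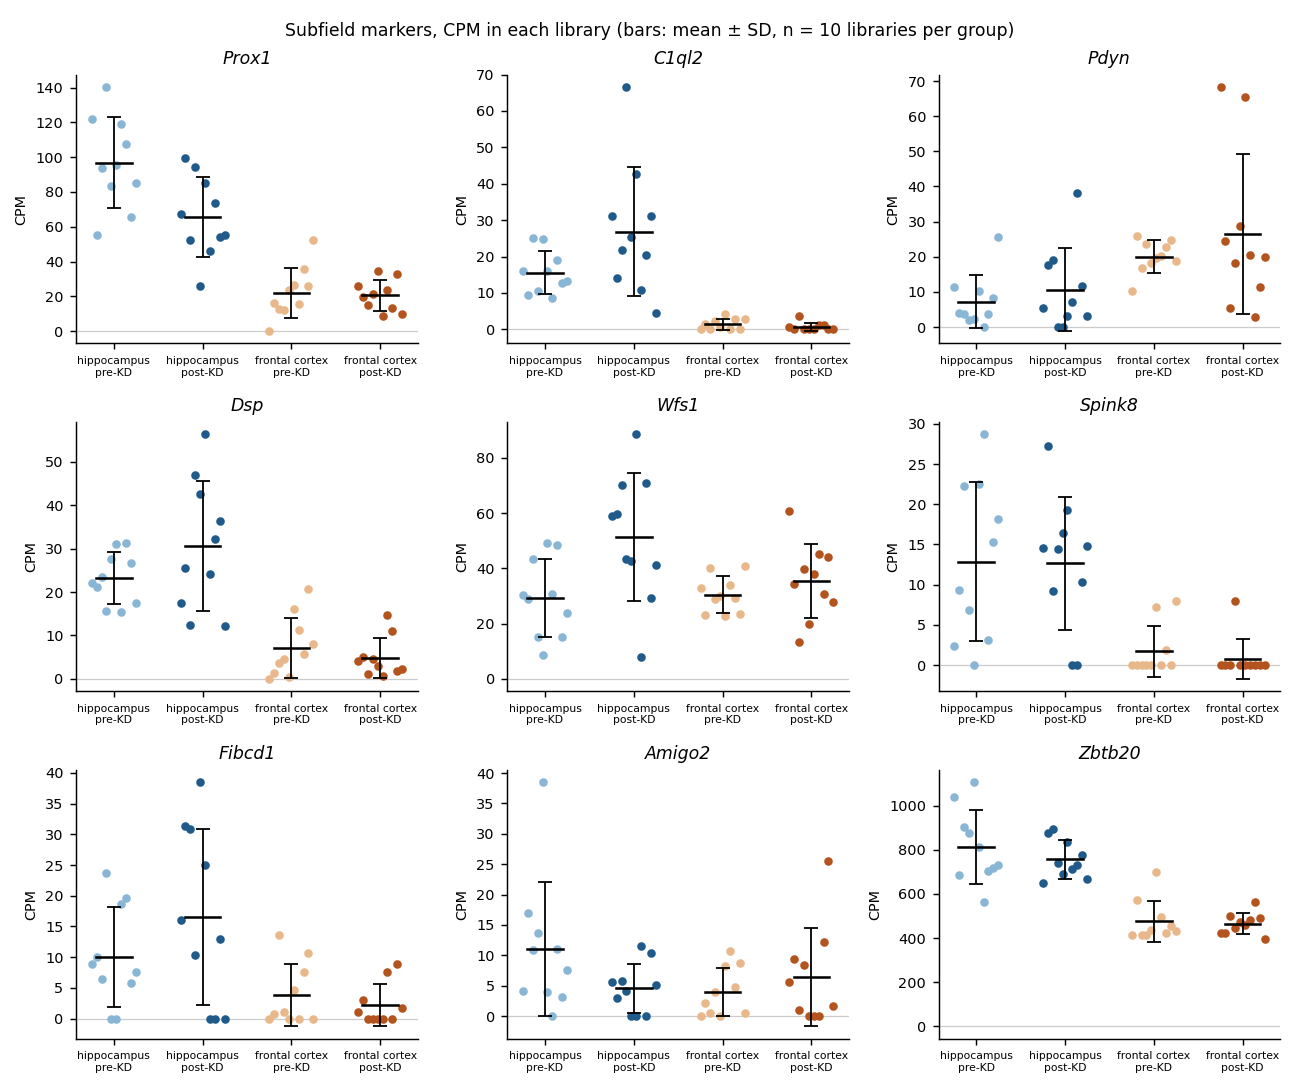
CPM (vertical axis, linear, 1 scale per gene) of the 9 markers in each of the 40 libraries, grouped by region and by pre-KD or post-KD colonization (points: libraries, in donor order within a group; bars: mean ± SD, n = 10). For *C1ql2* the 20 hippocampal libraries all lie above the 20 frontal cortical ones, while for *Wfs1* and *Amigo2* the regions overlap.

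*C1ql2* encodes a secreted C1q-like protein that granule cells place at mossy fibre synapses. Its hippocampal level ranged from 4.51 to 66.7 CPM with a median of 17.6, and its frontal cortical level from 0 to 4.13 CPM with a median of 0.251, with no count in 10 of 20 cortical libraries. The regions did not overlap in any of the 20 cohorts, a separation that 0.0257% of all genes had in this direction and 0.0463% in the other. The log2 fold change was 4.75 ± 0.70 (SE, adjusted p = 2.71e-09). *C1ql2* (ENSMUSG00000036907) lies on the plus strand at chr1:120340582-120343174 in GRCm38, the build of the mm10 alignment.

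*Dsp* encodes desmoplakin, a protein that anchors intermediate filaments at desmosomes and is used in the mouse brain as a label of granule cells. It was measured at 12.2 to 56.4 CPM in the hippocampus, with a median of 24.8, and at 0 to 20.7 CPM in the frontal cortex, with a median of 4.27. All 20 cohorts had more of it in the hippocampus, and 14 of 20 hippocampal libraries lay above the cortical maximum, so the ranges overlapped. The difference was 2.58 ± 0.50 on the log2 scale (SE, adjusted p = 3.34e-05). Cells of the meninges also make desmosomal proteins, and of 5 meningeal genes *Dcn* and *Igf2* were higher in the hippocampus. The correlation of *Dsp* with that list's summed level was -0.27 over the 20 hippocampal and 0.37 over the 20 cortical libraries, given as descriptions. *Dsp* (ENSMUSG00000054889) occupies chr13:38151294-38198577 on the plus strand.

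The 250 bases before the annotated starts of these transcripts are shown because their levels followed each other over the hippocampal libraries (below). They were taken from RefSeq on GRCm38.p6, plus strand, 5′ to 3′, at chr1:120340332-120340581 and chr13:38151044-38151293, and capitals mark the GC box GGGCGG or its reverse complement CCGCCC.
C1ql2: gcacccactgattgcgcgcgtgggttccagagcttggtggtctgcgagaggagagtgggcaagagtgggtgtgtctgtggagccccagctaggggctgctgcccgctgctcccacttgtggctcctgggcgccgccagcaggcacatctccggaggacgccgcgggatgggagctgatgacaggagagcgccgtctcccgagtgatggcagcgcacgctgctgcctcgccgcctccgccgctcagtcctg
Dsp: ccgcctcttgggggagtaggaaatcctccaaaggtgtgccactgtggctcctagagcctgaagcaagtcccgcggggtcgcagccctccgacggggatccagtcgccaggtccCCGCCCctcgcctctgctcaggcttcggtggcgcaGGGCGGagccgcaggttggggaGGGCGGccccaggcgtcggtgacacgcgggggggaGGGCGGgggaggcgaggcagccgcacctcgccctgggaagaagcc
The *Dsp* window held 4 GC boxes and the *C1ql2* window 0, and 32.7% of 32851 RefSeq windows of this length held at least 1. The E-box CAGCTG, the TATA-like TATAAA and the cAMP response element TGACGTCA were searched on both strands too and matched in neither window, against shares of 13%, 12.4% and 1.55% of all windows. Both windows were rich in G and C, at 68.8% for *C1ql2* and 72.4% for *Dsp*, where the median window had 52.4%.

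*Prox1* encodes a homeobox transcription factor that granule cells need to keep their identity and that some inhibitory neurons also make. Hippocampal libraries had 26.2 to 140.5 CPM, with a median of 84.3, and frontal cortical libraries 0 to 52.3 CPM, with a median of 20.7. The hippocampus was higher in 19 of 20 cohorts and 18 of 20 hippocampal libraries lay above the cortical maximum, with a log2 fold change of 2.01 ± 0.24 (SE, adjusted p = 9.55e-15). In the cortex 1 of 20 libraries had no *Prox1* count. The correlation of *Prox1* with the summed level of 5 inhibitory neuron genes was -0.21 in the hippocampal and -0.42 in the cortical libraries, descriptions over 20 libraries each, and *Gad1* and *Gad2* of that list were lower in the hippocampus. The gene (ENSMUSG00000010175, chr1:190118035-190170714, minus strand) overlaps the antisense gene *Prox1os*, which had 114 counts over all libraries, and whether the counting used strand is not given in the sources used here.

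*Pdyn*, the precursor of the dynorphin opioid peptides, went the other way. Dentate granule cells store dynorphin in their mossy fibres, and striatal projection neurons and some cortical neurons make it as well. Its level was 0 to 38.0 CPM in the hippocampus, with a median of 4.83 and no count in 3 of 20 libraries, and 2.89 to 68.4 CPM in the frontal cortex, with a median of 19.96. The hippocampal library was the lower one in 15 of 20 cohorts, and the log2 fold change was -1.96 ± 0.54 (SE, adjusted p = 0.0130). The call was lost within the pre-KD cohorts (adjusted p = 0.334), within the post-KD cohorts (adjusted p = 0.375), and without donor 4 (adjusted p = 0.0868) or donor 5 (adjusted p = 0.0639), with the sign kept throughout. Striatal genes were higher in the same cortical libraries, with *Rgs9* at 84.8 ± 24.4 CPM against 9.59 ± 13.1 CPM in the hippocampus (SD, n = 20). Within the frontal cortex the correlation of *Pdyn* with the summed striatal level was 0.11 over 20 libraries, a description only. *Pdyn* (ENSMUSG00000027400) lies at chr2:129686565-129699844 on the minus strand.

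Among the CA members, *Spink8*, a Kazal-type protease inhibitor gene used as a CA1 label, had the largest fitted difference between regions. It was found at 0 to 28.7 CPM in the hippocampus, with a median of 14.5 and 3 libraries at 0, and in the frontal cortex 16 of 20 libraries had no count and the highest had 7.95 CPM. In 17 of 20 cohorts the hippocampal library was higher and in 0 lower, and the log2 fold change was 5.14 ± 0.98 (SE, adjusted p = 2.04e-05). The 44 cortical counts came from 4 libraries. Within the pre-KD cohorts alone neither *Spink8* (adjusted p = 0.0942) nor *Dsp* (adjusted p = 0.140) passed.

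*Fibcd1*, which encodes a membrane receptor for acetylated sugars and is enriched in CA1, was measured at 0 to 38.5 CPM in the hippocampus and 0 to 13.6 CPM in the cortex, with medians of 10.2 and 0.854. The hippocampus was higher in 13 cohorts and lower in 5, with a log2 fold change of 2.84 ± 0.94 (SE) that missed the adjusted threshold (edgeR adjusted p = 0.0747). It passed with DESeq2 (adjusted p = 0.00326), without the cohort term (adjusted p = 0.0240), without donor 9 (adjusted p = 0.0281) and without donors 9 and 10 (adjusted p = 0.0216).

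*Wfs1* encodes wolframin, a membrane protein of the endoplasmic reticulum that is abundant in dorsal CA1 and is also made in the striatum and in upper cortical layers. Its range was 7.87 to 88.6 CPM in the hippocampus and 13.5 to 60.8 CPM in the cortex, with medians of 41.9 and 31.7 CPM, and the regions overlapped. The log2 fold change was 0.13, with a 95% confidence interval from -0.42 to 0.69 (adjusted p = 0.926). *Amigo2*, an adhesion molecule with leucine-rich repeats that labels CA2 and the adjoining part of CA3, was at 0 to 38.6 CPM in the hippocampus and 0 to 25.5 CPM in the cortex. Its log2 fold change was 0.93, with an interval from -0.85 to 2.71 (adjusted p = 0.785). *Amigo2* overlaps *Pced1b* on the opposite strand, which had 205 counts over all libraries, while *Amigo2* had 242 in the hippocampal and 177 in the cortical ones.

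*Zbtb20*, a zinc finger transcription factor that directs the development of hippocampal pyramidal cells and persists in granule cells and astrocytes, was detected in every library. It ranged from 563 to 1108 CPM in the hippocampus and from 394 to 701 CPM in the frontal cortex. All 20 cohorts had more in the hippocampus, with a log2 fold change of 0.73 ± 0.07 (SE, adjusted p = 4.74e-20), the smallest difference and the smallest error among the 6 members that passed. None of 6 astrocyte genes was higher in the hippocampus at the adjusted threshold, and *S100b* was lower there. *Aqp4* had a log2 fold change of 0.63 (edgeR unadjusted p = 0.0049, adjusted p = 0.126), and the list median was 0.12. The part of astrocytes in the *Zbtb20* difference was not tested. The positions on GRCm38 are chr5:36966104-36989205 (minus) for *Wfs1*, chr9:109812280-109826633 (plus) for *Spink8*, chr2:31813290-31846005 (minus) for *Fibcd1*, chr15:97244125-97247287 (minus) for *Amigo2* and chr16:42875881-43642602 (plus) for *Zbtb20*.

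**Figure D2:**
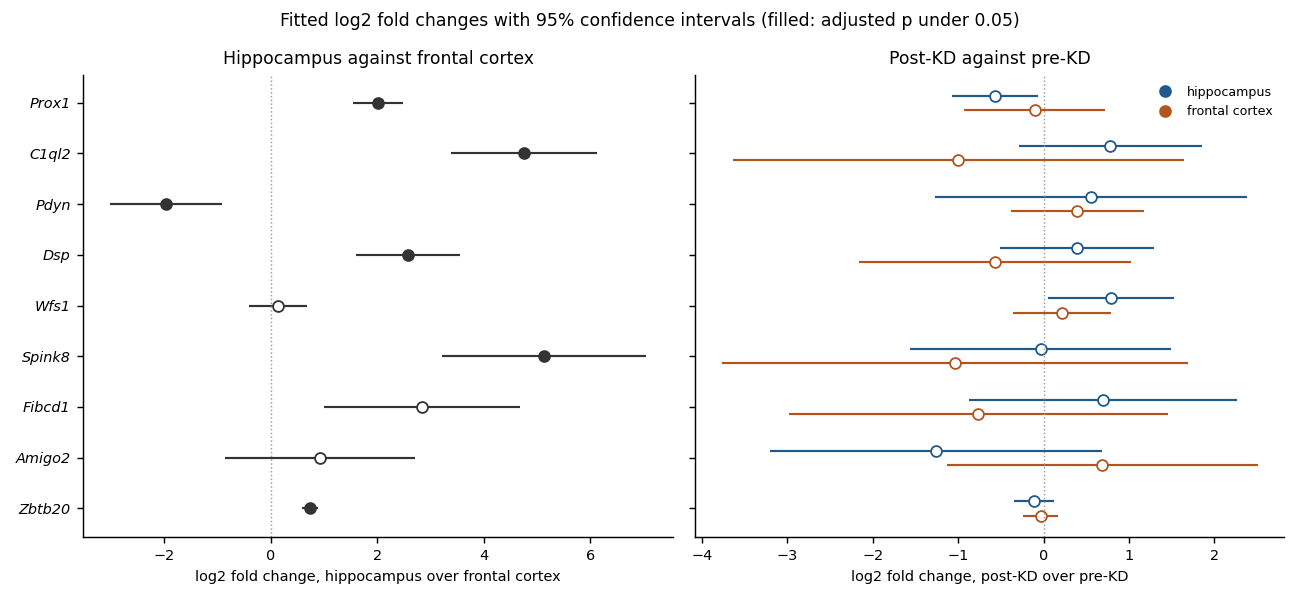
Fitted log2 fold changes (horizontal axes) of the 9 markers with 95% confidence intervals, hippocampus over frontal cortex on the left and post-KD over pre-KD in each region on the right, with filled points at an adjusted p under 0.05. On the left 5 filled points lie right of 0 and that of *Pdyn* lies left of it, and on the right no point is filled.

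Further genes of the subfields and of neighbouring tissue were read as lists. Of 12 further granule cell genes, 0 were higher in the hippocampus at the adjusted threshold and 1, *Pdzd2*, was lower (29.9 ± 18.6 against 50.6 ± 22.3 CPM, SD, n = 20). The median log2 fold change of the list was 0.24, where that of all genes was -0.17. Of 5 further CA1 genes 0 passed the edgeR adjusted threshold and 1 the unadjusted one, and of 6 CA3 genes 0 passed either. Among 6 CA2 genes only *Pcp4*, a calmodulin regulator also made in cortex and striatum, passed, and it was lower in the hippocampus at 180.2 ± 48.2 against 425 ± 89.2 CPM. A list of 9 cortical layer genes had 2 higher in the hippocampus, *Nr4a2* and *Fezf2*, and 4 lower, among them *Foxp2* (12.1 ± 10.8 against 49.5 ± 20.02 CPM) and *Lamp5* (40.4 ± 24.6 against 89.0 ± 22.5 CPM). Neither of 2 subiculum genes nor any of 6 thalamic and 5 oligodendrocyte genes passed, while of the lists for neurons in general and inhibitory neurons 1 of 4 and 2 of 5 genes were lower in the hippocampus.

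**Figure D3:**
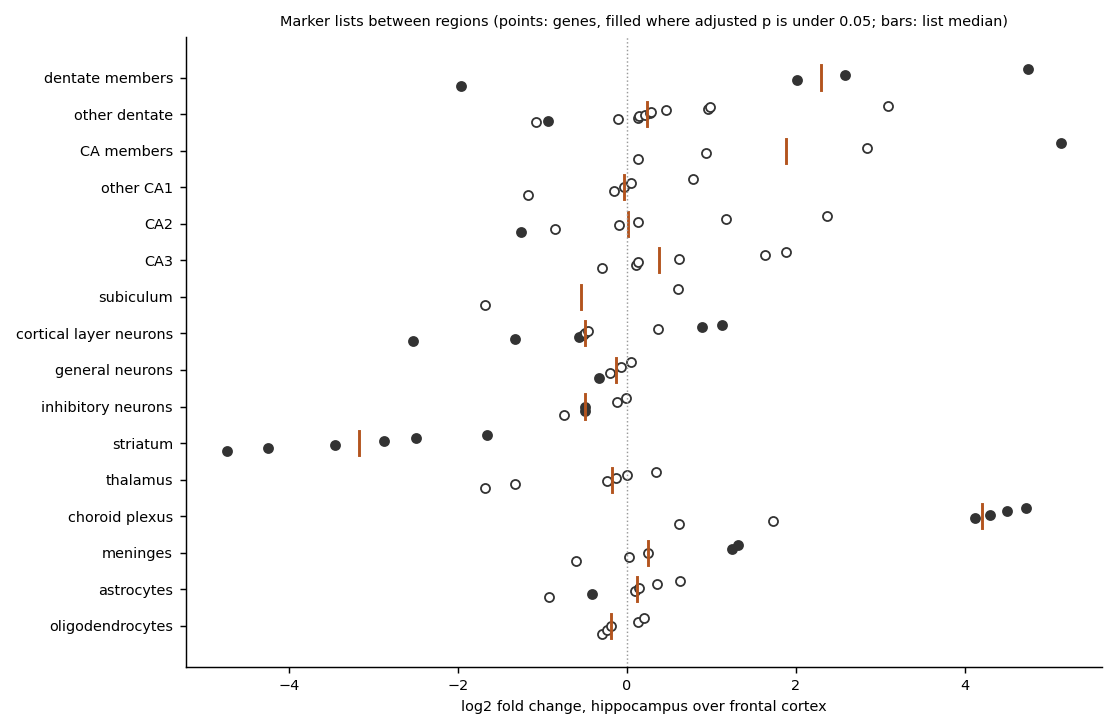
Log2 fold change between hippocampus and frontal cortex (horizontal axis) for every tested gene of 16 marker lists (points, filled at an adjusted p under 0.05; bars: list medians). The dentate and CA members have medians of 2.29 and 1.89, the further dentate and CA1 genes 0.24 and -0.04, the striatal genes -3.17 and the choroid plexus genes 4.21.

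The second question was whether colonization with post-KD in place of pre-KD microbiota was accompanied by a change in these markers. In the hippocampus 0 of 9 members passed the adjusted threshold with edgeR or with DESeq2, as 0.0057% of the 17529 genes tested did with edgeR. At an unadjusted p below 0.05 there were 2 members with edgeR, *Prox1* and *Wfs1*, where 10.1% of all genes passed, 4.57% upward and 5.48% downward. With DESeq2 there were 3, *C1ql2* being added, where 3.42% of all genes passed. Under a stricter edgeR filter on low counts (filterByExpr) the number was 2, where 2.32% of the 9509 genes then tested passed. With the donor as a block the edgeR number was 1, where 1.99% of all genes passed. Without donors 9 and 10 it was 1, beside 10.4% of all genes, and without donor 1 it was 0, beside 9.54%.

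The dentate member past the unadjusted threshold with edgeR was *Prox1*. Its pre-KD libraries ranged from 55.2 to 140.5 CPM with a median of 94.7, and its post-KD libraries from 26.2 to 99.5 CPM with a median of 61.4. The post-KD library was the lower one in 9 of 10 donors, all but donor 2, and 4 of 10 post-KD libraries lay below the pre-KD minimum, so the groups overlapped. The log2 fold change was -0.57 ± 0.25 (SE, edgeR unadjusted p = 0.0256, adjusted p = 0.324), and under the other normalizations, filters, tests and blocks tried, adjusted p lay between 0.263 and 1. Leaving out each donor gave log2 fold changes from -0.71 without donor 2 (unadjusted p = 0.00787, adjusted p = 0.124) to -0.48 without donor 7 (unadjusted p = 0.0679, adjusted p = 0.623), and without donor 1 the unadjusted p was 0.0533.

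The CA member past it was *Wfs1*, with a fitted difference of the other sign. Its pre-KD libraries ranged from 8.73 to 49.0 CPM with a median of 29.5, and its post-KD libraries from 7.87 to 88.6 CPM with a median of 51.3. It was higher post-KD in 9 of 10 donors, all but donor 7, with a log2 fold change of 0.79 ± 0.37 (SE, edgeR unadjusted p = 0.0371, adjusted p = 0.414). With the donor as a block its unadjusted p was 0.0592, and without any 1 of donors 1, 2, 3, 4, 5, 6 or 10 it lay between 0.0514 and 0.0648. Adjusted p of *Wfs1* lay between 0.308 and 1 under the same settings.

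The fitted values of the other dentate members were above 0, none past the unadjusted threshold with edgeR. *C1ql2* had a median of 14.6 CPM pre-KD (8.68 to 25.01) and 23.5 CPM post-KD (4.51 to 66.7), with the post-KD library higher in 8 of 10 donors and a log2 fold change of 0.78 ± 0.54 (SE, edgeR adjusted p = 0.853). With DESeq2 it was 0.80 (unadjusted p = 0.0477, adjusted p = 0.9999), and without donor 4 the edgeR value was 0.47. *Dsp* had medians of 22.7 and 28.8 CPM and a log2 fold change of 0.39 ± 0.46 (SE, adjusted p = 0.9998), was higher in 7 of 10 donors, and had a value of 0.25 without donor 4. For both genes 5 post-KD libraries lay above the pre-KD maximum, while 1 of *C1ql2* and 2 of *Dsp* lay below the pre-KD minimum, so that the post-KD group was spread on either side. *Pdyn* was higher post-KD in 5 donors and lower in 5, with a pre-KD mean of 7.14 ± 7.54 CPM and a post-KD mean of 10.6 ± 11.8 CPM (SD, n = 10).

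Of the remaining CA members, *Amigo2* had the largest fitted change, -1.26 ± 0.98 on the log2 scale (SE, adjusted p = 0.933), from 11.03 ± 11.01 to 4.54 ± 4.08 CPM (SD, n = 10), and it was lower in 7 donors. Without donor 5, whose pre-KD library held the 38.6 CPM, the log2 fold change of *Amigo2* was -0.66. *Spink8* stood at 12.9 ± 9.92 and 12.6 ± 8.31 CPM and *Fibcd1* at 10.1 ± 8.12 and 16.5 ± 14.3 CPM. *Zbtb20*, the best measured member, averaged 814 ± 169 CPM in the pre-KD libraries and 756 ± 86.6 CPM in the post-KD libraries, with a log2 fold change of -0.11 and a 95% confidence interval from -0.34 to 0.12, the narrowest of the 9. The interval ran from -1.27 to 2.38 for *Pdyn*, from -1.56 to 1.49 for *Spink8*, from -0.87 to 2.26 for *Fibcd1* and from -3.20 to 0.68 for *Amigo2*, so that changes in either direction within these bounds were not excluded.

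In the frontal cortex 0 of 9 members passed with edgeR or DESeq2, and 0 had an unadjusted p below 0.05 with either tool, where 0.0056% and 9.68% of the 17873 genes tested passed with edgeR, the latter being 5.01% upward and 4.68% downward, and 0.0112% and 4.62% with DESeq2. Both numbers were 0 without donors 9 and 10 too, beside 0.00576% and 9.21%. Pre-KD and post-KD libraries had 30.5 ± 6.58 and 35.4 ± 13.5 CPM of *Wfs1*, 22.1 ± 14.5 and 20.6 ± 8.93 CPM of *Prox1*, and 476 ± 93.8 and 465 ± 48.7 CPM of *Zbtb20* (SD, n = 10). *Pdyn* averaged 20.1 ± 4.61 and 26.5 ± 22.8 CPM in these groups, with 2 post-KD libraries below the pre-KD minimum and 3 above the pre-KD maximum. The difference between the regions in the change post-KD, tested by an interaction term in edgeR, passed for 0 of 9 members at the adjusted and for 0 at the unadjusted threshold, where 0.0154% and 2.22% of all genes passed, the latter being 0.865% above and 1.35% below 0. Without donors 9 and 10 these numbers of members were 0 and 0 as well, beside 0.0106% and 2.35% of all genes. For *Prox1* that difference was -0.61, with an interval from -1.53 to 0.31, and for *Wfs1* it was 0.67, with an interval from -0.43 to 1.77. Of the lists of further subfield, cortical, striatal and other cell type genes, 0 genes passed the edgeR adjusted threshold post-KD against pre-KD in either region, and between 0 and 2 genes per list had an unadjusted p below 0.05.

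The third question was whether markers of 1 subfield rose and fell together over libraries, since the share of a subfield in the dissected tissue can differ between libraries. Pearson's r of log2 CPM was computed for the 36 pairs of members over the 20 libraries of each region (permutation test with 100000 resamples, two-sided, Benjamini-Hochberg over 36 pairs). In the hippocampus 1 of 36 pairs passed after adjustment. The median r was -0.07 over the 6 pairs of dentate members, 0.06 over the 6 pairs of CA members and 0.06 over the 16 pairs of a dentate with a CA member, which ranged from -0.30 to 0.35. The CA pairs were of different kinds, with r of 0.36 to 0.52 for the 3 pairs among the CA1 labels *Wfs1*, *Spink8* and *Fibcd1* and of -0.57 to -0.24 for the 3 pairs of these with *Amigo2*.

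**Figure D4:**
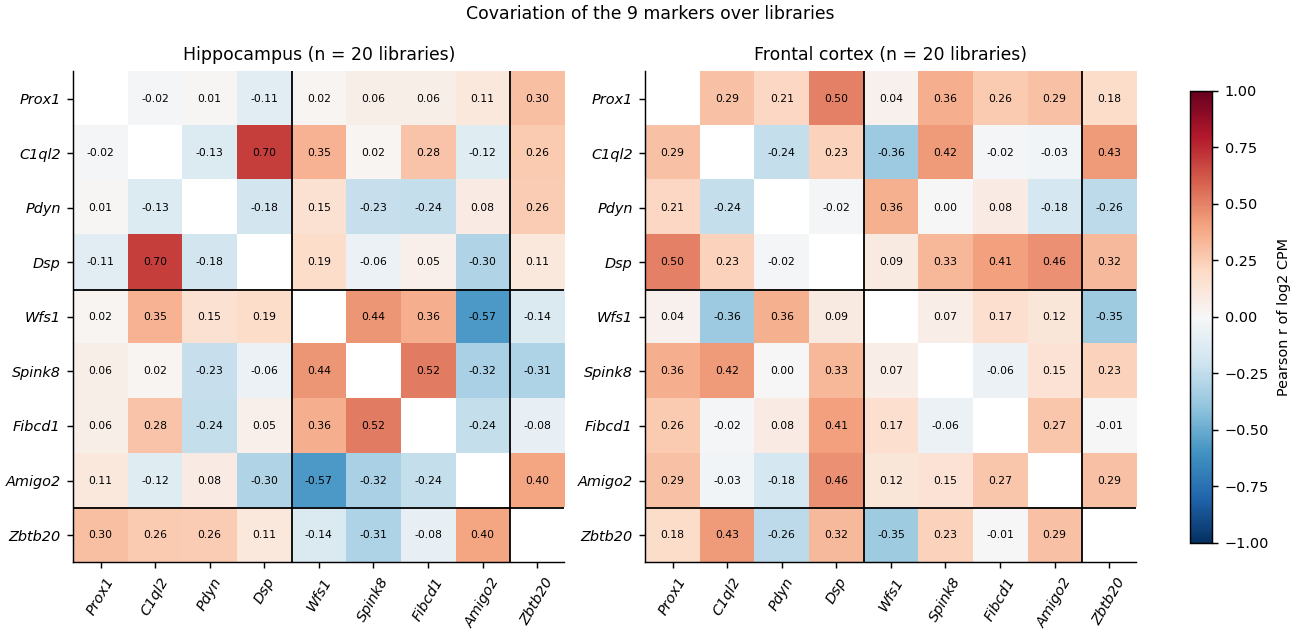
Pearson r of log2 CPM for each pair of the 9 markers over the 20 hippocampal libraries (left) and the 20 frontal cortical libraries (right), with black lines between dentate members, CA members and *Zbtb20*. In the hippocampus *C1ql2* with *Dsp* has the highest r, 0.70, and *Wfs1* with *Amigo2* the lowest, -0.57.

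The pair that passed was *C1ql2* with *Dsp*, both dentate members, with r = 0.70 (permutation p = 0.00063, adjusted p = 0.0227) and Spearman's rho = 0.65 (permutation p = 0.00265, adjusted p = 0.0954). In the order of r over 8016 genes averaging at least 20 counts, *Dsp* came at place 4 for *C1ql2*, and *C1ql2* at place 1 for *Dsp*. For *C1ql2* 95% of genes had an r under 0.35. The post-KD libraries of donors 4 and 6 were the highest for both genes, at 66.7 and 42.7 CPM of *C1ql2* and 46.95 and 56.4 CPM of *Dsp*, and the post-KD library of donor 10 the lowest, at 4.51 and 12.2 CPM. Without the 2 libraries farthest from the median of *C1ql2* r was 0.55. It was 0.66 in the 10 pre-KD and 0.68 in the 10 post-KD libraries taken alone, neither past the threshold after adjustment (permutation, adjusted p = 0.394 and 0.521), and 0.61 without donors 9 and 10 (adjusted p = 0.133). In the frontal cortex, where *C1ql2* was near 0, r was 0.23.

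For *Prox1*, the other transcript of granule cell identity, r was -0.02 with *C1ql2*, -0.11 with *Dsp* and 0.01 with *Pdyn* over the 20 hippocampal libraries, with permutation adjusted p between 0.900 and 0.958. Those of *Pdyn* were -0.13 with *C1ql2* and -0.18 with *Dsp*. The post-KD library of donor 4, highest in *C1ql2*, had 94.5 CPM of *Prox1* and no count of *Pdyn*.

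Of the CA members, *Spink8* and *Fibcd1* had an r of 0.52 (permutation p = 0.0176, adjusted p = 0.211; rho = 0.28, adjusted p = 0.812), and *Wfs1* had an r of 0.44 with *Spink8* (adjusted p = 0.464; rho = 0.31, adjusted p = 0.792) and 0.36 with *Fibcd1* (adjusted p = 0.664; rho = 0.36, adjusted p = 0.792). These values rested on few libraries. In the pre-KD library of donor 5 and the post-KD library of donor 7, *Spink8* and *Fibcd1* had no count and *Wfs1* had 12 and 13 counts, its lowest values in the region (8.73 and 7.87 CPM against a median of 41.9). Without these 2 libraries r fell to -0.07 for *Wfs1* with *Spink8*, to -0.02 for *Wfs1* with *Fibcd1* and to 0.25 for *Spink8* with *Fibcd1*.

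The totals of these libraries, 1322062 and 1544770 counts, lay within the range of the others, but the pre-KD library of donor 5 had the fewest genes with a count of all 40 libraries, 10223. *Prox1* was at 83.7 and 46.0 CPM, *C1ql2* at 24.7 and 10.9 CPM and *Dsp* at 27.6 and 24.2 CPM in them, inside the range of the other libraries. The 12 further dentate genes summed to 777 CPM in the pre-KD library of donor 5, the highest of the 20 libraries (median 553 CPM), and to 442 CPM, at place 15, in the post-KD library of donor 7. The 6 thalamic genes summed to 178 and 58.1 CPM there, at places 2 and 19 (median 86.96 CPM). *Amigo2*, the CA2 and CA3 label, had 38.6 CPM, the maximum of the region, and 11.5 CPM, at place 4 of 20. The summed CA2 genes came at places 8 and 13 (255 and 228 CPM) and the CA3 genes at places 12 and 19 (297 and 215 CPM). The 5 further CA1 genes summed to 331 and 355 CPM, at places 5 and 2 of 20 libraries (149 to 457 CPM). In the cortical libraries the CA1 sum was 176 to 381 CPM and the CA2 sum 318 to 655 CPM. None of the further dentate, CA1, CA2 or CA3 genes was higher in the hippocampus at the adjusted threshold. These sums therefore cannot show how much of a field a library held. The summed level of 4 general neuron genes was low in both of these hippocampal libraries, at 4081 and 4283 CPM where the median was 4638 CPM. The pre-KD library of donor 5 was also the highest in oligodendrocyte genes (3476 CPM), astrocyte genes (1002 CPM) and *Zbtb20* (1108 CPM) and the lowest in inhibitory neuron genes (403 CPM), and the part of these levels in the marker values was not tested. In the post-KD library of donor 8 *Spink8* and *Fibcd1* had no count as well, but *Wfs1* was at 70.8 CPM.

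*Wfs1* and *Amigo2* ran in opposite directions, with r = -0.57 (permutation p = 0.00874, adjusted p = 0.157) and rho = -0.57 (adjusted p = 0.188). Without the 2 libraries named above r was -0.41, and within the pre-KD and the post-KD libraries it was -0.38 and -0.60. *Spink8* with *Amigo2* gave r = -0.32 and rho = -0.52 (permutation, adjusted p = 0.664 and 0.241). Neither pair passed after adjustment.

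**Figure D5:**
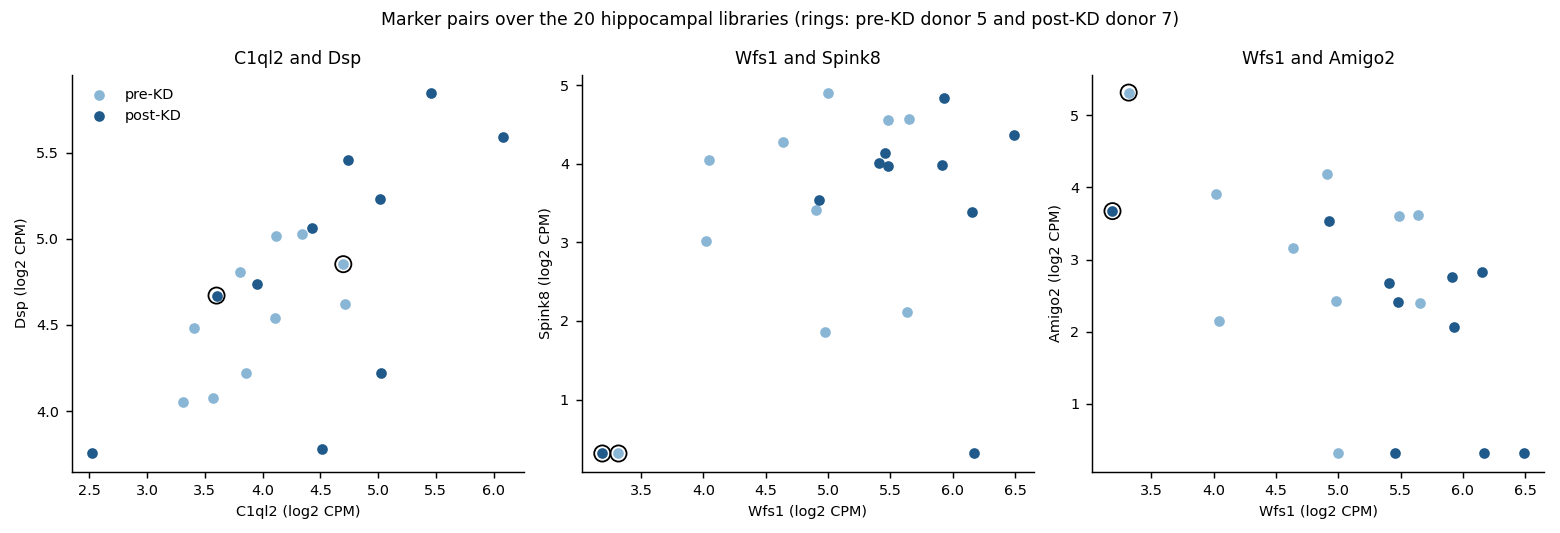
Log2 CPM of *Dsp* against *C1ql2*, *Spink8* against *Wfs1* and *Amigo2* against *Wfs1* in the 20 hippocampal libraries (points: pre-KD light, post-KD dark). The ringed libraries, pre-KD of donor 5 and post-KD of donor 7, have the lowest *Wfs1*, no *Spink8* count and *Amigo2* at 38.6 and 11.5 CPM, and they lie inside the cloud for *C1ql2* and *Dsp*.

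Averaged on the log2 scale, the 4 dentate members had a mean level of 4.43 ± 0.39 pre-KD and 4.54 ± 0.53 post-KD in the hippocampus, and the 4 CA members 3.54 ± 0.55 and 3.53 ± 0.97 (log2 CPM, SD, n = 10). The correlation between the 2 levels over the 20 libraries was -0.02 for hippocampal and 0.51 for cortical libraries, descriptions over members of few counts. The cortical value was 0.77 in the pre-KD and 0.12 in the post-KD libraries, and 0.44 without the pre-KD library of donor 1, the shallowest cortical library at 1188447 counts, in which *Prox1*, *C1ql2*, *Dsp*, *Spink8*, *Fibcd1* and *Amigo2* all had no count. The dentate level minus the CA level was 0.95 ± 0.91 in the hippocampus (SD, n = 20) and ranged from 0.01 to 3.47. The maximum was in the post-KD library of donor 8. There *Spink8*, *Fibcd1* and *Amigo2* had no count and *Pdyn* was at its hippocampal maximum of 38.0 CPM. The difference between the levels was not read as a ratio of cells. Between conditions this difference was 0.89 ± 0.74 pre-KD and 1.01 ± 1.08 post-KD, while the log2 ratio of the summed CPM, which *Prox1* and *Wfs1* dominate, was 1.19 ± 0.44 and 0.74 ± 0.74, so the sign of the shift depended on how the members were combined.

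In the frontal cortex 0 of 36 pairs passed after adjustment by the permutation test, with 3 at an unadjusted p below 0.05. The highest r there was 0.50, for *Prox1* with *Dsp* (adjusted p = 0.503), which was 0.30 without the pre-KD library of donor 1. Between the regions, over the 20 cohorts, 0 of 9 members had an r past the threshold after adjustment over 9 tests, and the most extreme was *Pdyn* with r = -0.48 (permutation p = 0.0332, adjusted p = 0.299; rho = -0.41, adjusted p = 0.603; r = -0.35 without the 2 cohorts farthest from the median).

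The members differed in how far they spread over libraries. The variance of the scaled counts over 20 hippocampal libraries was between 7.89 times the mean, for *Dsp*, and 35.2 times, for *Zbtb20*, where the median over all genes averaging at least 20 counts was 16.6 times. The coefficient of variation was 17.05% for *Zbtb20*, 35.6% for *Prox1* and 112% for *Amigo2*. *Pdyn*, *Spink8*, *Fibcd1* and *Amigo2* had no count in 3, 3, 5 and 4 of the 20 hippocampal libraries although they averaged between 12.01 and 20.5 scaled counts. Among all hippocampal genes averaging 5 to 50 counts, 18.04% of values were 0.

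By Pearson's r over the 20 hippocampal libraries, the genes outside the members most like the dentate level were *Prelid3b* (r = 0.73), *Tyw1* (0.70), *Usp33* (0.68), *Fam168b* (0.68) and *BC005537* (0.67), and those most like the CA level were *0610012G03Rik* (0.82), *Tmem35a* (0.80), *Fem1a* (0.80), *Rpl7* (0.77) and *Znhit6* (0.77), of 8011 genes. These values are a description of these libraries.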

How the data were processed

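Each library was made from brain tissue of 1 cohort, and the authors deposited whole-number counts of reads per Ensembl gene for each region. Per the labels and the methods, RNA was extracted with a PureLink RNA Mini kit, libraries were made with a TruSeq kit, and the submitters' processing notes name FastQC 0.11.5, STAR 2.5.2a, SAMtools 1.3, HTSeq 0.6.0 and the build mm10. The annotation release and the strand setting are not given in the sources used here, and the study's key resources name another kit and aligner. Positions were taken from GENCODE on GRCm38 and promoters from RefSeq on GRCm38.p6, which matched 8 of 9 members.

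Groups followed the labels. For each fit, genes reaching a sum of 10 counts in its libraries entered edgeR 4.0.16 (R 4.3.3, limma 3.58.1; TMM scaling, quasi-likelihood test, two-sided, Benjamini-Hochberg over all genes tested, threshold 0.05), post-KD against pre-KD within each region, and the regions and the interaction with a term for each cohort. DESeq2 1.42.0 was an alternative. Correlations used log2 CPM (TMM over 40 libraries, prior count 2) and 100000 permutations (scipy 1.17.1, numpy 2.4.6, pandas 2.3.3, Python 3.11.15), and figures matplotlib 3.10.9. Named were all 9 members, the 5 genes with the highest r to each level among those averaging at least 20 counts, and of each other list up to 2 genes with the highest and 2 with the lowest fold change between regions past the adjusted threshold and averaging at least 20 counts in a region. *Drd2* was named as a defining marker after its values were seen. P-values measure the spread between pooled cohorts. Scripts were tested on simulated counts. Members and lists were chosen with earlier results of these data known.

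Libraries from the stool samples of 1 donor share that donor, and both regions share the cohort. Deviations from the group means correlated at -0.0280 to 0.0299 between the libraries of a donor in the hippocampus, at -0.0564 to 0.0317 in the frontal cortex, and at -0.0347 to 0.237 between the regions of a cohort.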

Additional observations from a re-analysis of the deposited data

Results flagged for a closer look

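In 6 of 36 groups of 10 libraries (9 members in 4 groups), 1 library stood farther from its nearest neighbour than Dixon's 95% critical value of 0.466 of the range allows, where chance gives about 1 in 20 groups of normally distributed values. These values are skewed and hold many zeros, and the chance rate for such values was not determined. *Pdyn* was at 25.8 CPM in the hippocampal pre-KD library of donor 10, with 11.3 CPM next, and at 38.0 CPM in the hippocampal post-KD library of donor 8, with 19.2 CPM next. *Amigo2* was at 38.6 CPM in the hippocampal pre-KD library of donor 5, with 17.02 CPM next, and at 25.5 CPM in the frontal cortical post-KD library of donor 9, with 12.1 CPM next. *C1ql2* was at 3.78 CPM in the frontal cortical post-KD library of donor 3, with 1.18 CPM next. *Spink8* was at 7.92 CPM in the frontal cortical post-KD library of donor 4, and the other 9 libraries of that group had no count.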

How the results depend on the processing

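In the hippocampus, the number of members with an unadjusted p below 0.05 post-KD against pre-KD was 2, beside 10.1% of all genes, became 1 with the replicate block, beside 1.99%, and 1 without donors 9 and 10, beside 10.4%, and ran from 0 to 2 when each donor was left out, beside 9.44% to 10.2%, while in the frontal cortex it ran from 0 to 1, beside 8.92% to 9.74%, the 1 being *Spink8* without donor 4, where every post-KD library had no count, so that no fold is given (edgeR unadjusted p = 0.00248, adjusted p = 0.162). Of the 9 members, 6 differed between regions, beside 2.85% of all genes, 3 within the pre-KD cohorts alone, beside 1.09%, and 5 to 7 when each donor was left out, beside 2.34% to 2.9%. Over all genes, those past the adjusted threshold numbered 1 post-KD against pre-KD in the hippocampus and 1291 with no filter, and 554 between regions against 193 in the pre-KD cohorts and 2101 with no replicate block. The number of hippocampal pairs past the adjusted threshold fell from 1 to 0 in the pre-KD libraries, in the post-KD libraries and without donors 9 and 10, where fewer libraries entered. With Spearman's rho in place of Pearson's r it was 0 of 36 over all 20 libraries. Post-KD changes that turned sign, none past the threshold, were *Spink8* in the hippocampus (0.076 without donors 9 and 10, and -0.27 to 0.34 leaving out each donor), and in the frontal cortex *Prox1* (0.083 with the replicate block, 0.18 without donors 9 and 10, -0.30 to 0.21 leaving out each donor), *Pdyn* (-0.057 with the block), *Dsp* (0.019 without donors 9 and 10) and *Zbtb20* (-0.093 to 0.042 leaving out each donor). Between regions *Wfs1* was at -0.19 in the pre-KD cohorts and *Amigo2* at -0.089 in the post-KD cohorts. The cause was not tested. The fits without donors 9 and 10 or without named libraries were chosen after seeing the data, and leaving out each donor was not run for the difference between regions in the post-KD change. Members with few counts limit what the depth can show.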
